A study of Homo sapiens with 6 samples.

Results

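The linker and core histone genes form the subject here: 49 genes, of 16704 measured, whose symbol begins with H1-, H2AC, H2BC, H3C or H4C. They were taken from array features paired with exactly 1 gene symbol, and each of the 49 had 1 such feature. By class they are 10 H1 genes, 10 H2A genes, 13 H2B genes, 6 H3 genes and 10 H4 genes. The arrays came from LNCaP, an androgen-responsive human prostate cancer line. There were 3 MBD2 knockdown clones, stably carrying a short hairpin RNA directed against MBD2, and 3 scrambled control clones carrying a scrambled hairpin in the same siLentGene-2 vector, with 1 array per clone. All clones had been selected for neomycin resistance, and cytoplasmic RNA was measured. MBD2 is a reader of DNA methylation that brings a repressor complex to methylated CpG sites. The RNA was hybridised to Affymetrix HuGene 1.0 ST arrays. Each clone is a separate stable line of 1 cancer cell line, and precision is limited by having 3 arrays per group. Values are log2 expression values, so a difference of 1 is a doubling.

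Core histones H2A, H2B, H3 and H4 form the octamer around which DNA is wound, and linker histone H1 binds where DNA enters and leaves it. Most of their genes lie in clusters on chromosomes 6 and 1 and are transcribed while DNA is replicated, when new chromatin needs histones. Their messengers usually end in a stem-loop bound by SLBP instead of a poly(A) tail, and they are destroyed when replication stops. A few members, among them H2BC12, H2BC21, H2BC5 and H2AC6, are known to give polyadenylated messengers as well. H1-10 is a replication-independent linker histone, and H1-1 is a somatic one restricted to certain tissues. H1-6, H1-7, H1-8, H2AC1 and H2BC1 are known from germ cells or the egg, and H1-9P is a pseudogene.

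MBD2 itself had log2 values of 7.68, 7.84 and 7.81 in knockdown clones 1, 2 and 3, against 8.73, 9.24 and 9.20 in control clones 1, 2 and 3. The groups did not overlap, and the log2 fold change was -1.28 with a standard error of 0.14 (limma, adjusted p = 0.111; exact two-sided permutation p = 0.1, the smallest that 3 against 3 allows). Array medians lay between 6.32 and 6.35. Across all genes knockdown clones 2 and 3 were the most alike arrays, with an SD of their difference of 0.19, against 0.32 and 0.35 between clone 1 and each of them. Of the 9 luminal prostate markers 5 were measured, and their mean level was 9.19 to 9.68 in knockdown clones and 9.22 to 9.68 in control clones. In the knockdown clones 3 of them had a lower mean and 2 a higher one. Named after its values were seen, KLK3 had 8.66, 10.30 and 10.44 in knockdown clones 1, 2 and 3, against 8.67, 10.12 and 8.48 in the control clones. KRT18 was lower without overlap (-0.17). Both measured basal markers, KRT5 and KRT14, had a higher mean in the knockdown clones, and their mean level was 5.16 to 5.25 there, against 4.97 to 5.07 in control clones. Mean levels of 3 leukocyte markers (3.40 to 3.55 in knockdown and 3.45 to 3.57 in control clones) and 3 endothelial markers (3.87 to 4.13 and 3.93 to 4.08) were under every array's lower quartile. The 4 fibroblast markers averaged 4.49 to 4.53 in knockdown and 4.45 to 4.47 in control clones, but were uneven. DCN and LUM were dim, COL1A2 averaged 5.43 in knockdown and 5.42 in control clones, and COL1A1 had 7.11, 7.44 and 7.44 in knockdown clones 1, 2 and 3, against 7.10, 7.04 and 7.11 in the control clones. The part of the luminal and basal markers and of COL1A1 in the histone values was not tested.

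Histone messengers tended to be lower in the MBD2 knockdown clones. The mean was lower in 38 of 49 members and higher in 11, where 51.3% of all genes had a lower mean. The median log2 fold change of the members was -0.21, and that of all genes was -0.0043. At an adjusted p under 0.05 limma called 0 of the 49 members and 0 of 16704 genes (0%), so no single member passed. At an unadjusted p under 0.05 there were 17 members, all lower, or 34.7% of them, where 9.39% of all genes reached that level, 5.45% as lower and 3.93% as higher. The 3 knockdown values lay below all 3 control values in 17 members, where this holds for 8.87% of all genes. They lay above them in 1 member, H1-6, where this holds for 6.57% of all genes. In bulk RNA fewer cells that express these genes and less histone RNA per cell cannot be told apart.

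The size of the difference was 1.5-fold or more in 7 members on the lower side, where 0.748% of all genes were that much lower. These were H2AC8, H1-5, H3C1, H2BC14, H3C11, H2AC16 and H3C2. On the higher side H4C8 was the 1 member at that size, where 0.808% of all genes were that much higher. Members with a feature signal above the median of all genes (6.32) and those below it differed in this. Of the 27 brighter members 24 had a lower mean, where 63.0% of all brighter genes did, with a median of -0.38 against -0.043 for all genes of that brightness, and 14 reached an unadjusted p under 0.05 as lower, where 8.06% of all brighter genes did. Of the 22 dimmer members 14 had a lower mean, where 39.6% of all dimmer genes did, with a median of -0.038 against 0.031 for all dimmer genes, and 3 reached that level, where 2.85% of all dimmer genes did. In 13 members the mean signal was under 4.71, the smallest lower quartile among the 6 arrays, and 2 of these, H2AC8 and H2BC1, are among the 17.

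**Figure D1:**
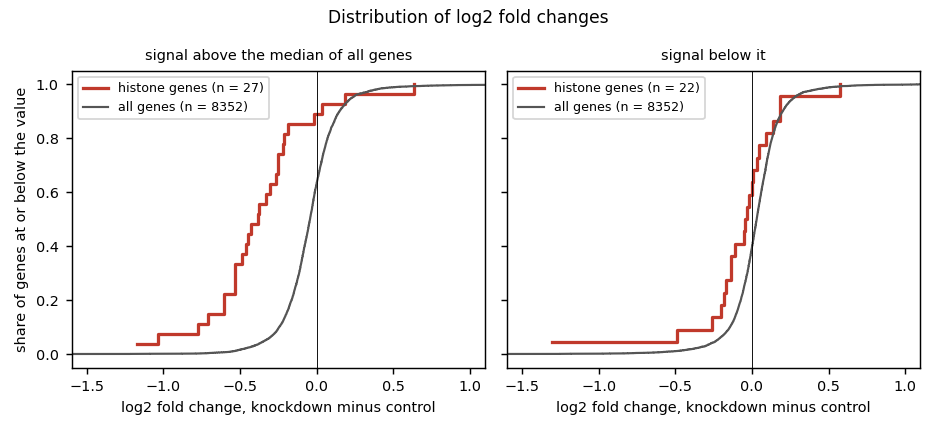
Cumulative share of genes (y axis) at or below each log2 fold change, knockdown minus control (x axis), for histone genes (red) and all genes (grey), for features with a mean signal above (left) and below (right) the median of all genes. On the left the 27 histone genes are shifted to lower values, with a median of -0.38 against -0.043, and on the right the 22 histone genes lie closer to all genes, with -0.038 against 0.031.

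The knockdown clones did not share this pattern equally. Relative to the mean of the control clones, the median over the 49 members was -0.10 in knockdown clone 1, -0.24 in clone 2 and -0.27 in clone 3, and 0.065, 0.023 and -0.080 in control clones 1, 2 and 3. Knockdown clone 1 lay below all 3 control clones in 23 members, where it did so in 27.9% of all genes. Clone 2 did so in 37 members, where the share over all genes was 31.2%, and clone 3 in 31 members, where it was 34.3%. Above all 3 control clones stood 9 members in knockdown clone 1, 4 in clone 2 and 7 in clone 3, where the shares over all genes were 37.3%, 23.1% and 24.9%. In 33 of 49 members clone 1 was the highest of the 3 knockdown clones. Over the members, the SD of the difference was 0.21 between knockdown clones 2 and 3, and 0.46 and 0.53 between clone 1 and each of them.

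Single clones moved the counts. Without knockdown clone 1, 27 members reached an unadjusted p under 0.05, 25 of them lower, where 9.12% of all genes did so as lower. In that limma fit 70 of 16704 genes passed the adjusted threshold. Among them were 3 members, H1-5 (adjusted p = 0.0053), H2AC16 (0.048) and H3C1 (0.0498), all lower. Members without overlap between groups, 18 with all clones, numbered 31 without knockdown clone 1, 28 of them lower, and 30 without control clone 3, 27 of them lower, where the lower share of all genes was 20.8% and 13.9%. Leaving out any other clone left 19 to 23 such members, 17 to 21 of them lower, where 11.7% to 13.7% of all genes were lower without overlap. Dropping a clone can only keep or raise a count without overlap, so these counts are not on the same footing as the 18.

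**Figure D2:**
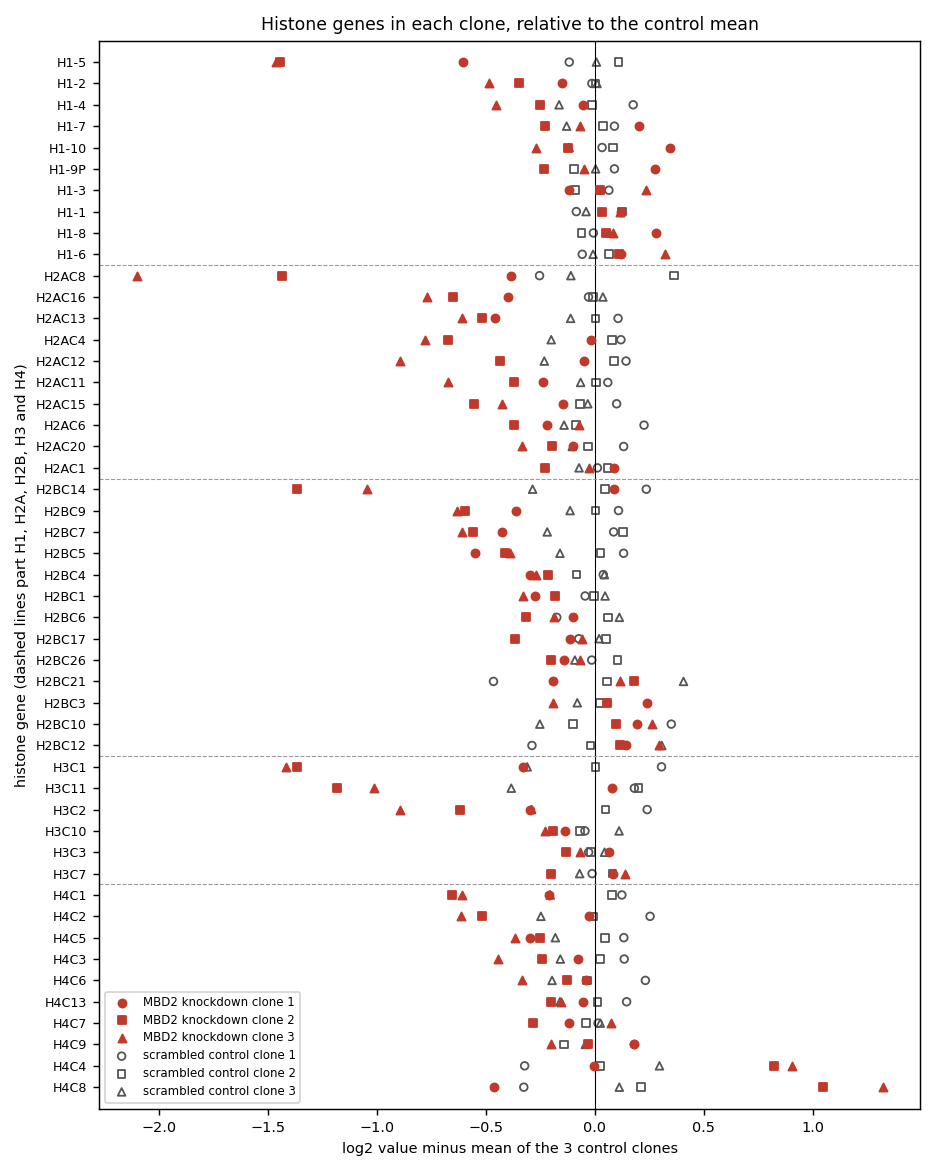
Log2 value minus the mean of the 3 control clones (x axis) for each of the 49 histone genes (y axis, grouped by class and ordered by the difference between groups), with knockdown clones as filled red symbols and control clones as open grey ones. In 5 H2A genes every red symbol lies left of the grey ones, and H4C8 and H4C4 have knockdown clones 2 and 3 far to the right.

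Among linker histones the lower values without overlap were those of H1-5 and H1-2, replication-coupled genes of chromosome 6. Of all genes 8.87% were lower without overlap, and of genes with a signal above the median 13.5% were. H1-5 had log2 values of 8.89, 8.05 and 8.04 in knockdown clones 1, 2 and 3, against 9.38, 9.61 and 9.51 in the control clones. All 3 knockdown clones lay below the controls, clone 1 least so, which made H1-5 lower by 2.25-fold (log2 fold change -1.17, SE 0.22, adjusted p = 0.229). H1-2, a widely expressed somatic H1, had 9.04, 8.85 and 8.71 in the knockdown clones, against 9.18, 9.20 and 9.21 in the control clones, again without overlap (-0.33, SE 0.10, adjusted p = 0.393). H1-4, another somatic H1, had 11.77, 11.57 and 11.37 in the knockdown clones, against 12.00, 11.81 and 11.66 in the control clones. Its groups overlapped through knockdown clone 1, and its log2 fold change was -0.25 (adjusted p = 0.615). H1-3, a further replication-coupled somatic H1 of this cluster, gave a dim signal and differed by 0.047.

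The other linker histones differed little. H1-10 had 7.23, 6.76 and 6.62 in the knockdown clones, against 6.92, 6.97 and 6.77 in the control clones, so clone 1 was above and clones 2 and 3 below every control (-0.016, with a sign that turned to 0.0085 after repeated quantile normalization and to 0.0016 after cyclic loess). H1-7 and H1-9P had log2 fold changes of -0.031 and -0.0018. H1-8, the oocyte linker histone, had 0.14, and H1-1 had 0.090. H1-6, the testis linker histone, had 4.30, 4.29 and 4.51 in the knockdown clones, against 4.13, 4.25 and 4.17 in the control clones (0.18, adjusted p = 0.584). Its knockdown values were all above the control values, at a signal under the lower quartile of every array. Over the 10 H1 members the median was -0.0091, with 6 lower and 4 higher. By clone that median was 0.12, -0.18 and -0.060 in knockdown clones 1, 2 and 3. The class median was -0.14 when knockdown clone 1 was left out, and its sign turned to 0.029 without control clone 1, 0.063 without knockdown clone 2 and 0.0051 without knockdown clone 3.

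All 10 H2A genes had a lower mean in the knockdown clones, with a median of -0.44 and values from -1.31 to -0.054. In 5 of them the groups did not overlap, where 8.87% of all genes and 13.5% of brighter genes were lower without overlap. H2AC13 had the smallest p of all 49 members. Its log2 values were 8.71, 8.65 and 8.56 in knockdown clones 1, 2 and 3, against 9.28, 9.17 and 9.06 in the control clones (-0.53, SE 0.09, adjusted p = 0.229). H2AC16 had 7.67, 7.42 and 7.31 in the knockdown clones, against 8.05, 8.07 and 8.11 in the control clones (-0.61, SE 0.11, adjusted p = 0.229). In both genes all knockdown clones, clone 1 included, lay below all controls. H2AC20 of chromosome 1 had 11.70, 11.60 and 11.47 in the knockdown clones, against 11.93, 11.77 and 11.70 in the control clones (-0.21, adjusted p = 0.575). There knockdown clone 1 reached the level of control clone 3. H2AC8 had the most negative log2 fold change of all members, -1.31, on a dim feature that stood at 4.14, 3.09 and 2.43 in the knockdown clones, against 4.28, 4.89 and 4.42 in the control clones. H2AC11 (-0.43) and H2AC15 (-0.38) did not overlap between groups either, while H2AC4 (-0.49), H2AC12 (-0.46) and H2AC6 (-0.22) did. H2AC1, at a signal under every array's lower quartile, had -0.054.

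The H2B genes were more mixed, with 9 of 13 lower and a median of -0.20. On the lower side 5 had no overlap, where 8.87% of all genes and 13.5% of brighter genes were lower without overlap. H2BC9 had 7.10, 6.86 and 6.83 in knockdown clones 1, 2 and 3, against 7.57, 7.46 and 7.35 in the control clones (-0.53, SE 0.10, adjusted p = 0.229). H2BC7 had 8.28, 8.15 and 8.10 in the knockdown clones, against 8.79, 8.84 and 8.49 in the control clones (-0.53, SE 0.11, adjusted p = 0.27). In both genes every knockdown clone was below every control. H2BC14 had 10.22, 8.76 and 9.08 in the knockdown clones, against 10.37, 10.18 and 9.84 in the control clones (-0.78, SE 0.35, adjusted p = 0.554). Clones 2 and 3 were far below the controls there and clone 1 was among them. The log2 fold change of H2BC14 was -1.21 without knockdown clone 1 and -0.48 without clone 2. H2BC5 (-0.45), H2BC4 (-0.26) and the dim H2BC1 (-0.26) did not overlap between groups.

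H2BC12 and H2BC21, which can give polyadenylated messengers, had no lower mean on the feature of their own. Features they share with other genes had lower means, -0.62 and -0.17 for those naming H2BC21 and -0.16 for that naming H2BC12. H2BC12 had 11.00, 10.97 and 11.15 in the knockdown clones, against 10.56, 10.83 and 11.16 in the control clones (0.19, SE 0.15, adjusted p = 0.762). All knockdown clones lay within the range of the controls, and the log2 fold change was 0.042 without control clone 1 and 0.34 without control clone 3. H2BC21 had 9.03, 9.40 and 9.34 in the knockdown clones, against 8.76, 9.28 and 9.63 in the control clones (0.035, adjusted p = 0.977). The other genes of the kind, H2BC5 and H2AC6, had log2 fold changes of -0.45 and -0.22, so the 4 differed in direction.

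**Figure D3:**
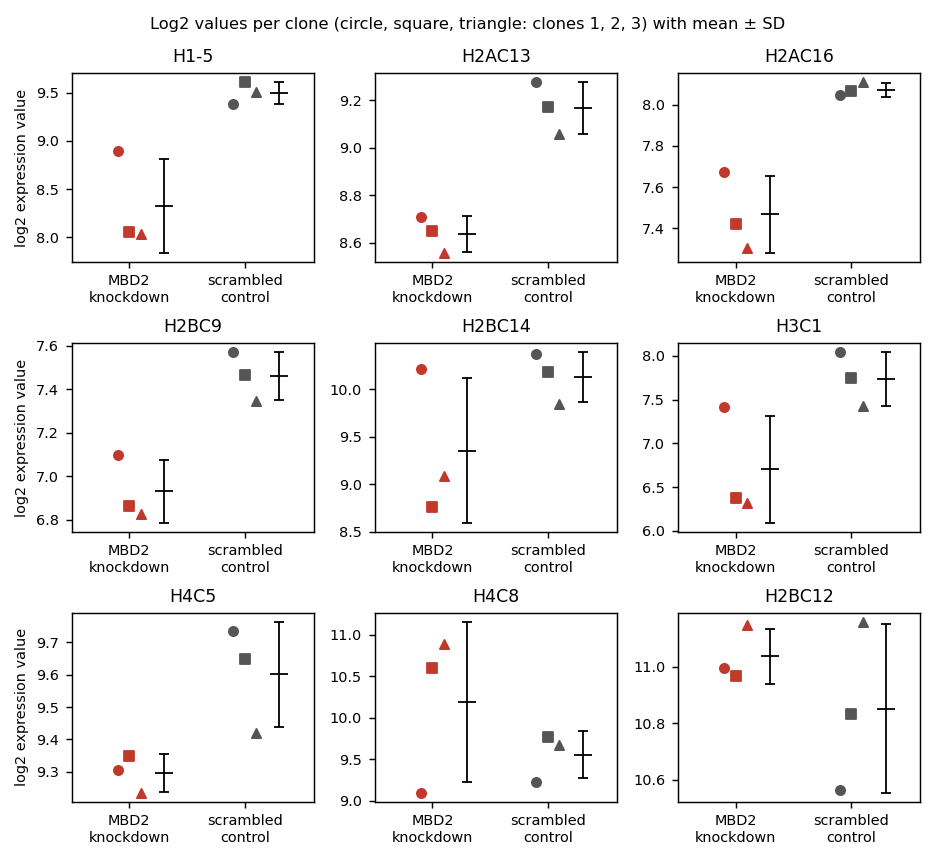
Log2 expression values (y axis, own scale in each panel) of 9 histone genes in the MBD2 knockdown clones (left, red) and the scrambled control clones (right, grey), with circles, squares and triangles for clones 1, 2 and 3 and bars for the mean ± SD (n = 3 each). H1-5, H2AC13, H2AC16, H2BC9, H3C1 and H4C5 have all red symbols below the grey ones, while in H4C8 clones 2 and 3 stand above every control.

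Of the 6 H3 genes 5 had a lower mean, with a median of -0.39. In 3 the groups did not overlap, where 8.87% of all genes and 13.5% of brighter genes were lower without overlap. H3C1 had 7.41, 6.37 and 6.32 in knockdown clones 1, 2 and 3, against 8.05, 7.74 and 7.43 in the control clones (-1.04, SE 0.30, adjusted p = 0.364). Clone 1 lay barely below control clone 3, and clones 2 and 3 lay far below. H3C2 had 10.32, 10.00 and 9.72 in the knockdown clones, against 10.86, 10.66 and 10.33 in the control clones (-0.60, SE 0.18, adjusted p = 0.393), with the same order. H3C11 had 9.53, 8.27 and 8.44 in the knockdown clones, against 9.63, 9.65 and 9.07 in the control clones (-0.71, SE 0.33, adjusted p = 0.569), and its value was -1.10 without knockdown clone 1 and -0.47 without clone 2. Clone 1 was again among the controls. H3C10 had -0.19 without overlap, and H3C7 and H3C3, with dim signals, had 0.0062 and -0.045.

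Most H4 genes code for the same protein, and here their differences ran in opposite directions. The mean was lower in 8 of 10, with a median of -0.15. That median was -0.083 without control clone 1 and -0.24 without control clone 3. In 2 of them, H4C5 and H4C1, the groups did not overlap. Of all genes 8.87% were lower without overlap, and of brighter genes 13.5% were. H4C3 had 11.86, 11.69 and 11.49 in knockdown clones 1, 2 and 3, against 12.07, 11.96 and 11.78 in the control clones (-0.25, adjusted p = 0.576). H4C2 had 10.39, 9.90 and 9.80 in the knockdown clones, against 10.67, 10.41 and 10.17 in the control clones (-0.38, adjusted p = 0.579). In both genes clone 1 lay within the control range and clones 2 and 3 below it. H4C5 had 9.30, 9.35 and 9.23 in the knockdown clones, against 9.74, 9.65 and 9.42 in the control clones (-0.31, SE 0.10, adjusted p = 0.408). H4C1 had 5.90, 5.46 and 5.50 in the knockdown clones, against 6.23, 6.19 and 5.91 in the control clones (-0.49, SE 0.15, adjusted p = 0.385). In both the knockdown clones lay below the controls, in H4C1 by less than 0.01 between knockdown clone 1 and control clone 3.

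H4C8 and H4C4 stood out on the other side. H4C8 had 9.09, 10.60 and 10.88 in knockdown clones 1, 2 and 3, against 9.23, 9.77 and 9.67 in the control clones. Clones 2 and 3 were above every control and clone 1 was below every control, so the log2 fold change of 0.64 carried a standard error of 0.43 (adjusted p = 0.712) and was 1.18 without knockdown clone 1, 0.43 without clone 2 and 0.29 without clone 3 (adjusted p 0.0514 to 0.895 over the fits that leave out 1 clone). H4C4 had 5.97, 6.79 and 6.87 in the knockdown clones, against 5.65, 5.99 and 6.27 in the control clones (0.57, SE 0.26, adjusted p = 0.555). Its clones 2 and 3 were above every control too, and clone 1 lay within the control range. Without knockdown clone 1 the value of H4C4 was 0.86 (adjusted p = 0.088). Neither gene passed the threshold, and near-identical histone genes can share probes.

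H4C5 and H4C8 are shown side by side because they have the most alike promoters of the 8 H4 genes with a promoter in the table and opposite differences. The stretches are the 200 bases before the transcription start from RefSeq, build GRCh38.p14, 5′ to 3′, H4C5 at chr6:26204410-26204609, plus strand, H4C8 at chr6:26285535-26285734, minus strand and H4C4 at chr6:26189113-26189312, minus strand. Capitals mark the TATAAA match, found in H4C4 only.
H4C5: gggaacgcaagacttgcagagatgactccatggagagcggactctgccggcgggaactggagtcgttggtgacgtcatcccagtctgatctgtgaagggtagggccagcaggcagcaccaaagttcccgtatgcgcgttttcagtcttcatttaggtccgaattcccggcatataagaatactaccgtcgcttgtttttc
H4C8: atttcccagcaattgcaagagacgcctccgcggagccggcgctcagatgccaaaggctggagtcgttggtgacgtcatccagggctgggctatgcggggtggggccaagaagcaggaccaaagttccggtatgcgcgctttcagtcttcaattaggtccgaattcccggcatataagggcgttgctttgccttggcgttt
H4C4: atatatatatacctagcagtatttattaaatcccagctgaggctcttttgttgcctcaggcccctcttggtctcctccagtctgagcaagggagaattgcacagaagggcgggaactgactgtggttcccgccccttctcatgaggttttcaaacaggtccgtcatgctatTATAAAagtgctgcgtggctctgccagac
Read from the start site without gaps, H4C5 and H4C8 carry the same letter at 138 of 200 positions (69.0%), with a shared run of 26 bases, while the next most alike pair of H4 genes reached 37.5%. The likeness of these letters is a description and says nothing on which factor binds.

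Promoters of 44 of the 49 members were matched in RefSeq by gene identifier, and motifs were counted on either strand in the 250 bases before each start. The octamer ATTTGCAT, a site known for H2B promoters, was present in 11 of 13 H2B and 7 of 9 H2A promoters and in 0 of the 9 H1, 5 H3 and 8 H4 promoters, where 1.66% of 27305 promoters of all genes hold it. The CCAAT box was present in 38 of 44, among them all 13 H2B, 9 H2A and 5 H3 promoters but 3 of 8 H4 promoters, where 33.0% of all promoters hold it. TATAAA was present in 28 of 44, against 11.1% of all promoters. TTTCGCGC, a site of the E2F type, was present in 7 of 44, against 0.469% of all promoters. None of these 4 motifs contains another, and they were chosen after the values had been seen. The median log2 fold change was -0.24 for members with the octamer and -0.14 for those without it, a split that follows the classes. It was -0.43 for the 7 with TTTCGCGC and -0.19 for those without. These 7 are 3 H2A, 3 H2B and 1 H3 gene, so this split follows the classes too. Their values ran from -0.78 (H2BC14) to 0.19 (H2BC12). For the CCAAT box the median was -0.21 with it and -0.063 without, and for TATAAA -0.21 and -0.15. The promoters held 2 to 26 CG dinucleotides in this window, with a median of 8.5 against 11 for all genes, and across the 44 members their number and the log2 fold change had a Spearman correlation of -0.041, with the promoters of gene pairs overlapping.

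The following stretches, again the 200 bases before the start in GRCh38.p14, show these motifs in capitals for 4 members that did not overlap between groups and for 1 that did. H1-5 (chr6:27867589-27867788, minus strand), H3C1 (chr6:26020251-26020450, plus strand), H2AC16 (chr6:27865117-27865316, plus strand) and H2BC9 (chr6:26251414-26251613, plus strand) had lower values in every knockdown clone, and H2BC12 (chr6:27146859-27147058, minus strand) did not.
H1-5: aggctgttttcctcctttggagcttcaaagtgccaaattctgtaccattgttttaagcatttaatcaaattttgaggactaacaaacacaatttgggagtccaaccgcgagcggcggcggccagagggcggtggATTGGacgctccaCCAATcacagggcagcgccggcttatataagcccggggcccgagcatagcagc
H3C1: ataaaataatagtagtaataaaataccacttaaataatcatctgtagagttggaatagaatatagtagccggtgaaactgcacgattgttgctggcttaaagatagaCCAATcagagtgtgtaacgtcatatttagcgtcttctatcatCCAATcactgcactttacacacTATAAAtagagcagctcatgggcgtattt
H2AC16: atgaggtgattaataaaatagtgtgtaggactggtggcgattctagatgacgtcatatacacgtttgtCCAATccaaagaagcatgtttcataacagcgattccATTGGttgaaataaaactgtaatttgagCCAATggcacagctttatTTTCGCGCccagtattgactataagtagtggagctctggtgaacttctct
H2BC9: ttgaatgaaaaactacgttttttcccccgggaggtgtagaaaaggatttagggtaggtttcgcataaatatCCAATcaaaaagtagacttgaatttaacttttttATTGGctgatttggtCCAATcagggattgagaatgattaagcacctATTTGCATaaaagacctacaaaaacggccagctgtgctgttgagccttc
H2BC12: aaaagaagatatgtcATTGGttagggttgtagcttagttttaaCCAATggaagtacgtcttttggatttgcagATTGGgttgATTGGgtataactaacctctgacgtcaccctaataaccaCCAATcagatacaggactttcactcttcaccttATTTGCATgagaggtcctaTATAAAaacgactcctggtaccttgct
H1-5 and H3C1 carry CCAAT matches and no octamer. H2BC9 and H2BC12 each hold the octamer on the coding strand shortly before the start, so this motif was present in an H2B gene with a lower value in each knockdown clone and in 1 without.

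Among the 44 members with a promoter entry, an H2A gene and an H2B gene in 3 cases start back to back, 215 to 246 bases apart, and share the sequence between them. H2BC4 and H2AC6 had log2 fold changes of -0.26 and -0.22. H2BC21 and H2AC20 of chromosome 1 had 0.035 and -0.21, and the dim pair H2AC1 and H2BC1 had -0.054 and -0.26. The sequence before H2AC20 (chr1:149886718-149886917, plus strand) also lies before H2BC21, read on the other strand. Capitals mark the octamer, in reverse as ATGCAAAT, the CCAAT boxes and TATAAA.
H2AC20: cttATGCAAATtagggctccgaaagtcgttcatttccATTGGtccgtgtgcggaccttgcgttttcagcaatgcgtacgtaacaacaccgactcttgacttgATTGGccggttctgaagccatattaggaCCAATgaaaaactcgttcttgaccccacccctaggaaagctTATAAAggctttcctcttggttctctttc
The difference within a pair was 0.25 for H2BC21 less H2AC20 and -0.041 for H2BC4 less H2AC6, and was not tested. H2AC12 (-0.46), in the same stretch of chromosome 6 as H2BC12 (0.19), has no promoter entry and was not considered here.

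By position, 42 of the 49 members lie on chromosome 6 and fall into 3 stretches parted by more than 10 other genes in RefSeq gene order. The first, from H2AC1 to H4C8, holds 29 members, of which 21 had a lower mean (median -0.25). The second, from H2AC11 to H2AC12, holds 4 members, 3 of them lower (median -0.22). The third, from H2AC13 to H2BC17, holds 9 members, all with a lower mean (median -0.53), among them H1-5, H2BC14 and H3C11. Opposite values stood next to each other in the first stretch: H4C4 (0.57) lies between H2BC6 (-0.20) and H2BC7 (-0.53) in the order of members. H2AC13 and H3C10 are neighbours with -0.53 and -0.19. The 7 members outside chromosome 6, on chromosomes 1, 3, 12 and 17, had values from -0.21 to 0.14.

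**Figure D4:**
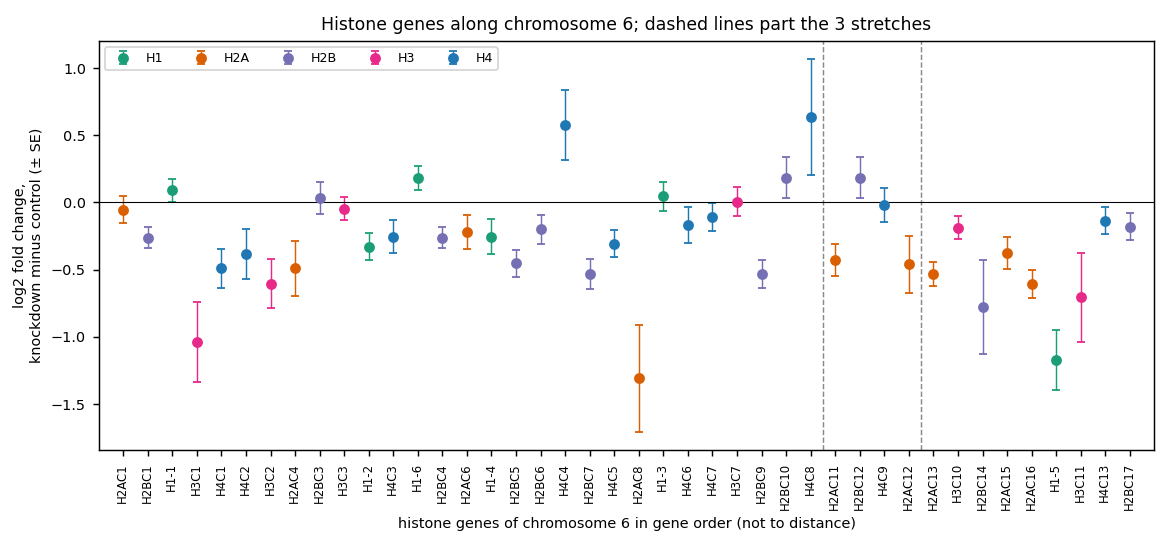
Log2 fold change, knockdown minus control, with its standard error (y axis) for the 42 histone genes of chromosome 6 in gene order, not to distance (x axis), coloured by class, with dashed lines between the 3 stretches. All 9 genes of the last stretch lie below 0, and H4C4 and H4C8 lie highest.

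A further 19 features name several genes of which at least 1 is a histone gene of these classes, and they were left out of the 49 because they cannot be given to 1 gene. Of these, 6 form pairs with identical values and were counted once a pair, which leaves 16 distinct sets of values. All 16 had a lower mean in the knockdown clones, where 50.5% of all features did, from -0.69 to -0.15 with a median of -0.36, and 7 reached an unadjusted p under 0.05 in a limma fit over all 19712 features, where 5.42% of all features did so as lower. In that fit 0 of the 16 and 0 of all features passed the adjusted threshold. In 4 of the 16 the groups did not overlap, where 8.7% of all features were lower without overlap. Most of the 16 have a signal above the median of all genes. Among genes that bright 63% had a lower mean, 8.06% were lower at that unadjusted level and 13.5% were lower without overlap. Named after their values were seen, the feature for H2BC12, H2BC12L, H2BC17 and H2BC5 had 11.62, 11.32 and 11.40 in the knockdown clones, against 11.69, 11.57 and 11.57 in the control clones (-0.16), with clone 1 among the controls. The feature shared by H3C10 and H2AC13 had 8.47, 8.28 and 8.25 in the knockdown clones, against 8.73, 8.65 and 8.68 in the control clones (-0.35), without overlap. Since near-identical histone genes can share probes, the members are not independent of each other, and which member a feature measures is uncertain.

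Histones made outside S phase can replace the replicated ones in chromatin. Of the 17 listed, 10 were measured by a feature of 1 gene, 9 had a lower mean, and the median was -0.12, with 3 lower and 0 higher at an unadjusted p under 0.05 and 0 past the adjusted threshold in limma. Of all genes, 51.3% had a lower mean, and 5.45% were lower and 3.93% higher at that unadjusted level. Among genes with a signal above the median, as most of these have, 63% had a lower mean and 8.06% were lower at that level. MACROH2A2, a macroH2A variant, had 7.37, 6.88 and 7.06 in the knockdown clones, against 7.92, 7.76 and 7.78 in the control clones (-0.72, SE 0.13, adjusted p = 0.229). H2AX, the H2A variant phosphorylated at DNA breaks, had 8.62, 8.36 and 8.31 in the knockdown clones, against 8.75, 8.77 and 8.84 in the control clones (-0.35, SE 0.10, adjusted p = 0.361). Both had no overlap between groups. H3-3B, a gene for the replacement histone H3.3, had -0.40, lowest in knockdown clone 1 (7.63, against 8.21 and 8.18 in clones 2 and 3). H2AZ1, the variant H2A.Z, had -0.057. H3-4, once named with the replicated histones, had -0.11.

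Regulators of histone supply were compared as lists. These share SLBP, MCM2, E2F1, CCNE1 and CCNE2 with the list of S phase genes given further below, so the lists are not independent. Of 12 measured genes for transcription at the clusters 10 had a lower mean (median -0.17, or -0.11 without knockdown clone 3). NPAT, the coactivator of histone loci, had -0.19 (adjusted p = 0.601), CCNA2, cyclin A2, had -0.54 and CDC25A, a phosphatase that activates CDK2, had -0.47. Of 26 genes for messenger processing, export and decay 18 had a lower mean (median -0.049, or -0.0875 without control clone 1 and -0.032 without control clone 2). SLBP, which binds the stem-loop, had 8.50, 8.14 and 7.94 in the knockdown clones, against 8.38, 8.44 and 8.39 in the control clones (-0.21, adjusted p = 0.70). It was above the controls in clone 1 and below them in clones 2 and 3. ERI1, an exonuclease that trims histone messengers, had -0.25, and CSTF2T had -0.36. Of 33 chaperones and importers 25 had a lower mean. Their median was -0.085, and it was -0.16 without knockdown clone 1, -0.037 without knockdown clone 2, -0.042 without knockdown clone 3 and -0.056 without control clone 2. HJURP, the chaperone of the centromeric histone CENPA, had -0.44 and MMS22L had -0.41. In each of these 3 lists 0 genes passed the adjusted threshold in limma. At an unadjusted p under 0.05 there were 3 lower and 0 higher genes for transcription, 3 lower and 1 higher for messenger processing, and 6 lower and 0 higher among chaperones. Over all genes 51.3% had a lower mean, and 5.45% were lower and 3.93% higher at that level. Among genes with a signal above the median, 63% had a lower mean and 8.06% were lower at that level.

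Genes of DNA replication and of mitosis had lower means beside the histone genes. Of 39 measured S phase genes 38 had a lower mean, with a median of -0.27, and all 35 measured mitosis genes did, with a median of -0.43, while 0 of either list passed the adjusted threshold in limma. At an unadjusted p under 0.05, 10 S phase genes and 29 mitosis genes were lower and 0 higher. Of all genes, 51.3% had a lower mean, and 5.45% were lower and 3.93% higher at that level. For genes with a signal above the median, 63% had a lower mean and 8.06% were lower at that level. The primase subunit PRIM2 had -0.40 and the helicase subunit MCM6 -0.35, and the kinesin KIF11 and the kinetochore gene SPC25 had -0.53 and -0.58. Leaving out knockdown clone 1 put the S phase median at -0.43, and leaving out knockdown clone 3 put it at -0.16. By clone, the S phase median relative to the control mean was 0.018 in knockdown clone 1, -0.39 in clone 2 and -0.49 in clone 3, and 0.048, 0.066 and -0.14 in control clones 1, 2 and 3. For mitosis genes the same median stood at -0.23 in knockdown clone 1, -0.45 in clone 2 and -0.56 in clone 3, against 0.095, -0.0085 and -0.065 in the control clones. The H2A median followed a like order, with -0.18, -0.48 and -0.64 in knockdown clones 1, 2 and 3, and the H3 median with -0.037, -0.41 and -0.56. The H4 median also fell in this order, with -0.067, -0.22 and -0.27. The H2B median (-0.14, -0.22 and -0.19) and the H1 median (0.12, -0.18 and -0.060) did not. Clone 1 was thus closest to the controls in the S phase, mitosis, H2A, H2B, H3 and H4 lists, but not in the H1 list. The part of the cell cycle in the histone values was not tested.

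**Figure D5:**
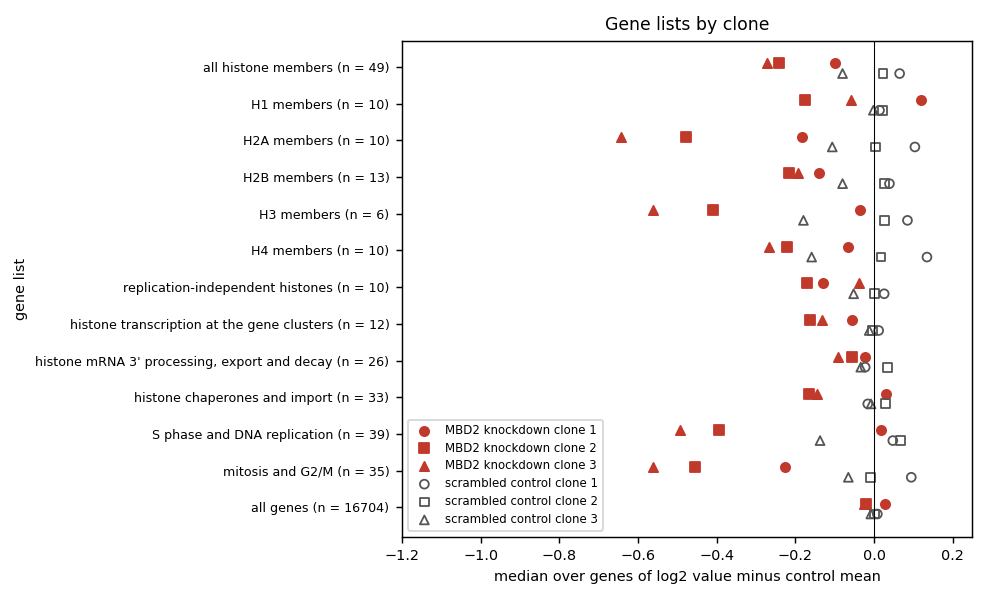
Median over the genes of each list of the log2 value minus the control mean (x axis), by list (y axis, with the number of measured genes), for knockdown clones (filled red) and control clones (open grey). In the H2A, H3, S phase and mitosis lists knockdown clones 2 and 3 lie at -0.39 or lower and clone 1 at -0.23 or higher, while over all genes every clone lies near 0.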

How the data were processed

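For 6 LNCaP clones the authors deposited log2 values, 1 per array feature. RMA, oligo and limma are named per the submitters' processing notes. RMA subtracts background, quantile-normalizes arrays and combines probes into 1 log2 value. Versions, filters and genome build were not given in the sources used here, and the log2 scale rests on RMA and on the range of the values. No further scaling was applied.

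Of 19712 features 17334 carry 1 gene symbol, 1521 several and 857 none listed here. The highest-mean feature per gene left 16704 genes. All 49 histone genes were found in RefSeq (GRCh38.p14) through their gene identifiers, and 0 symbols needed updating. The groups were fitted in R 4.3.3 with limma 3.58.1 (lmFit, then eBayes), without covariates. P-values were adjusted over all genes (Benjamini-Hochberg), and the threshold was an adjusted p of 0.05. They measure the spread between clones. The fit was tested on simulated data. Log2 fold changes are knockdown minus control. Gene lists were described by counts and medians and not tested. Promoters and gene order were handled in Python 3.11.15 with pandas 2.3.3.

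The members and lists were chosen with earlier results of these data known. Named are MBD2, every H1 member, per other class the 2 brightest members and the 2 with the smallest p, the 5 higher and 5 lower members with the smallest p, and per list the 2 genes with the smallest p plus set genes. Other members are given by their value, and those given in every clone beyond this rule (H2AC8, H2BC21) were chosen after their values were seen. H3-3A has no feature of its own here and was not analysed. The replicates are described as separate stable clones, per the series' design text. Same-numbered clones of the 2 groups did not deviate together (correlations across genes -0.025, -0.19 and 0.17), so numbers were not taken as pairs. Alternatives were array weights, eBayes with trend, a replicate block, cyclic loess, repeated quantile normalization, centring of arrays, dropping the 30% dimmest genes, averaging a gene's features and leaving out each clone.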

Additional observations from a re-analysis of the deposited data

How the results depend on the processing

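Centring, eBayes with trend and robust settings, the replicate block and averaged features kept 0 histone members past the adjusted threshold and the median of the members between -0.221 and -0.211. With the replicate number as a block, 25 members reached an unadjusted p under 0.05 in place of 17. Of these 24 were lower, where 5.48% of all genes were lower at that level, and the numbers do not pair the clones. Genes past the adjusted threshold numbered 1 after quantile normalization, 1 after cyclic loess and 325 under array weighting, where knockdown clone 1 counted with 0.252 and clone 2 with 3.43. With those weights 14 members passed, 31 reached an unadjusted p under 0.05, 29 of them lower, where 11.6% of all genes did so as lower, and MBD2 passed (-1.27, adjusted p = 0.0138). The cause was not tested. Without the dimmest genes, which removes dim members by construction, the median was -0.317 over the members. By class it was -0.262 for H2B, -0.28 for H4 and -0.655 for H3, which had -0.394 with all genes kept. The median over the members was -0.368 and -0.435 in knockdown clones 2 and 3. It was -0.385 over members above the median signal and -0.237 with shared features added.

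Leaving out 1 clone at a time gave 0 to 70 genes and 0 to 3 members past the adjusted threshold, 15 to 27 members at an unadjusted p under 0.05 (15 to 25 lower, where 3.6% to 9.12% of all genes were), and 19 to 31 without overlap (17 to 28 lower, where 11.7% to 20.8% of all genes were). The median stayed between -0.243 and -0.187 over the members, -0.243 and -0.142 for H2B, and -0.241 and -0.0826 for H4. It lay between -0.544 and -0.325 for H2A and between -0.483 and -0.311 for H3. The lists' medians lay between -0.431 and -0.156 for S phase, -0.494 and -0.357 for mitosis, -0.159 and -0.0371 for chaperones, -0.177 and -0.114 for transcription at the clusters, -0.0875 and -0.0319 for messenger processing, and -0.181 and -0.0866 for replication-independent histones. H3-4 lay between -0.213 and -0.00292. MBD2 lay between -1.44 and -1.19, with adjusted p from 0.0179 (control clone 1 left out) to 0.458, and 0.0498 with knockdown clone 1 left out. Among the members named by rule, signs turned in 4 linker histones near 0: H1-7 (-0.148 to 0.0668), H1-9P (-0.142 to 0.114), H1-10 (-0.197 to 0.11, and 0.00846 and 0.00162 after quantile normalization and cyclic loess) and H1-3 (-0.0483 to 0.13). With 3 arrays a group, differences in dim members could not be measured well.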
